A study of Mus musculus with 38 samples.

Results

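Ribosome footprints on GABA receptor genes and on Gphn, which encodes gephyrin, were followed in mouse primary cortical neurons. The receptor genes were the GABA-A receptor subunit genes Gabra2, Gabra3, Gabra5 and Gabrb2 and the GABA-B receptor genes Gabbr1 and Gabbr2. These 7 genes were chosen by name out of 22401 genes with a coding transcript in the files, and all 7 passed the filter on low counts in every comparison. The value for each gene was the number of footprints in the coding sequence (CDS) of its longest transcript, scaled to the library's total of all such CDS counts and given as CPM.

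GABA-A receptors are pentameric chloride channels that carry fast inhibition, and their alpha subunits set much of where the receptor sits and how it responds. Receptors with the alpha5 subunit are known mainly from extrasynaptic membrane, where they carry tonic inhibition, whereas those with alpha2 or alpha3 cluster at synapses. GABA-B receptors are slow, G-protein-coupled heterodimers in which the Gabbr1 product binds GABA and the Gabbr2 product couples to the G protein and brings the dimer to the surface. Gephyrin is the scaffold under inhibitory synapses, the counterpart of PSD95 at excitatory ones.

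All 14 groups were cultures of CD-1 mouse cortex carrying a doxycycline-inducible lentiviral biotin ligase, either TurboID-PSD95, which elements of the PSD95 transcript send to dendrites, or Pan-TurboID, which lacks such elements. Both ligases were expressed from a virus, and the dishes of a sample were pooled. Cycloheximide, which halts elongating ribosomes, was added 2 min before biotin. Biotin was given for 30 min per the labels, although a shorter time is given for DHPG in the methods. The single ribosomes (monosomes) of each lysate were sequenced as input and as streptavidin pulldown. In the KCl experiment, neurons with TurboID-PSD95 or Pan-TurboID were left at rest or depolarized with 55 mM KCl for 1 h, with 3 replicates in each of 8 groups. A separate set of TurboID-PSD95 neurons received DHPG, which activates metabotropic glutamate receptors of group I, at 100 µM for 10 min, with 3 inputs and 3 pulldowns. Another set received 20 nM siRNA against eIF4G2 for 72 h and was kept at rest or depolarized with KCl, with 2 libraries in each of 4 groups. Neurons given KCl or DHPG had first been silenced for 2 h with tetrodotoxin and DL-AP5. KCl and silencing cannot be told apart in a comparison of depolarized with resting neurons. The DHPG set has no untreated libraries of its own and no control siRNA libraries were analysed here, so treatment and experiment cannot be told apart when DHPG or knockdown libraries are set against the KCl experiment. The descriptions of the DHPG inputs and of all knockdown libraries name a cytosolic region, while their virus field names the PSD95 ligase.

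Dlg4, the gene of PSD95, whose coding sequence and UTRs are part of the viral TurboID-PSD95 construct, marked which libraries held TurboID-PSD95 pulldowns. Its mean log2 ratio of pulldown to input lay between 2.97 and 4.04 in the 5 groups labelled TurboID-PSD95, and it was -0.31 and -0.15 in the 2 Pan-TurboID groups. Library totals ranged from 5906281 to 35643247 counts, of which 2048604 to 14646402 were in the chosen CDSs. The lowest count of any of the 7 genes in a library was 71, for Gabra5, and the highest was 9503, for Gabbr1. The 7 pan-neuronal markers summed to 4787 to 9891 CPM, 11 GABAergic markers to 786 to 3467 CPM, 9 astrocyte markers to 242 to 1557 CPM, and none of these markers was at 0 throughout.

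The genes lie on 7 chromosomes of the mm10 build. On the minus strand are the CDSs of Gabra2 (ENSMUSG00000000560, chr5:70961802-71094602, 1356 nt in 9 exons), Gabra3 (ENSMUSG00000031343, chrX:72434649-72552816, 1479 nt), Gabra5 (ENSMUSG00000055078, chr7:57408607-57508064, 1392 nt) and Gabbr2 (ENSMUSG00000039809, chr4:46664784-46991425, 2823 nt in 19 exons). On the plus strand are those of Gabrb2 (ENSMUSG00000007653, chr11:42421350-42626891, 1425 nt), Gabbr1 (ENSMUSG00000024462, chr17:37046695-37073026, 2883 nt in 22 exons) and Gphn (ENSMUSG00000047454, chr12:78226778-78683911, 2310 nt in 24 exons). Exons of the antisense gene Gm9962 overlap the Gabra5 CDS, and whether the counting used strand is not given in the sources used here, so Gabra5 levels are uncertain to that extent. No other gene's exons overlapped the remaining 6 CDSs.

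Gabbr1 makes a long protein, GABA-B1a, with sushi domains at its start, and a short one, GABA-B1b. The short form begins in its own stretch directly upstream of the long form's coding exon 5. The coding starts of both, with the start codon in capitals, and an exon of the long form that received no count are shown, as none of them is shared by both forms. The long form's start lies at chr17:37046695-37046724, the short form's at chr17:37050854-37050883 and the small exon at chr17:37049777-37049797, all on the plus strand of mm10.
Gabbr1 long form start: ATGctgctgctgctgctggtgcctctcttc
Gabbr1 short form start: ATGggcccggggggaccctgtaccccggtg
Gabbr1 exon without counts: tgaatcgaacgccacactcag

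For Gphn, the first 30 bases of the 2 cassette exons that only the longest transcript holds (at chr12:78522898-78522927 and chr12:78532657-78532686) and of the exon that only the other coding transcript holds (at chr12:78493950-78493979, all on the plus strand) are shown, since all 3 were nearly empty of footprints.
Gphn cassette exon of 57 nt: caaattagacggccggatgaaagcaaagga
Gphn cassette exon of 42 nt: gctcggcttccgtcgtgctcatctacctat
Gphn exon of the other transcript, 108 nt: aagcatccattctacaccagtcctgctctt

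Over all 38 libraries, the 4 exons special to the long Gabbr1 form, 493 nt in all, held 4639, 9819, 11407 and 0 counts. That is 56.6, 48.1, 61.3 and 0 counts per nt, against 39.9 over the whole CDS. The 145 nt special to the short form held 1443 counts, or 9.95 per nt, so the density on the long form's larger exons was several-fold higher than on the short form's own start. The 21 nt exon was the only one of the 22 with no count in any library. It is shorter than the shortest read counted, 25 nt, so no read can lie wholly within it. Whether reads across its junctions were lost in mapping was not tested. The 2 Gphn cassettes held 85 and 48 counts, or 1.49 and 1.14 per nt, and the exon of the other transcript held 110 counts, or 1.02 per nt, against 14.4 over the whole CDS. An exon of a second Gabrb2 transcript (114 nt, chr11:42602115-42602228) held 47 counts, or 0.412 per nt against 25.3 over the Gabrb2 CDS. Another Gabra3 transcript has 2 coding segments that the chosen CDS lacks. The 43 nt directly upstream of the chosen CDS (chrX:72552817-72552859) held 397 counts, or 9.23 per nt against 14.1 over the Gabra3 CDS. Footprints were counted at their 5′ ends with an offset of 0, so ribosomes on the first codons of the chosen CDS count there. Those counts therefore do not separate the 2 transcripts. The 80 nt further upstream held 28, or 0.35 per nt.

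Per kb of CDS, Gabra2 and Gabbr1 had the highest levels of the 7 genes at rest. For Gabra2 the resting TurboID-PSD95 inputs averaged 180 ± 20.1 CPM per kb (SD, n = 3), which did not differ beyond the spread from Gabbr1 at 169 ± 11.9, followed by Gabrb2 at 74.8 ± 7.45, Gphn at 73.5 ± 10.0 and Gabra3 at 47.6 ± 11.3. Gabbr2, at 33.2 ± 3.48, and Gabra5, at 32.1 ± 2.17, were lowest and did not differ beyond their spread. By group mean Gabra2 ranked first per kb in all 14 groups and Gabbr1 ranked second in 11 of them. In the depolarized pulldowns of both ligases and in the depolarized knockdown pulldowns Gabrb2 took second place, but not beyond the spread. Gabrb2 was at 163 ± 90.7 CPM per kb with TurboID-PSD95 against 151 ± 23.9 for Gabbr1, and at 166 ± 73.3 against 160 ± 18.2 with Pan-TurboID. In the knockdown pulldowns the values were 112 ± 28.5 and 93.8 ± 12.8 (n = 2).

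**Figure D1:**
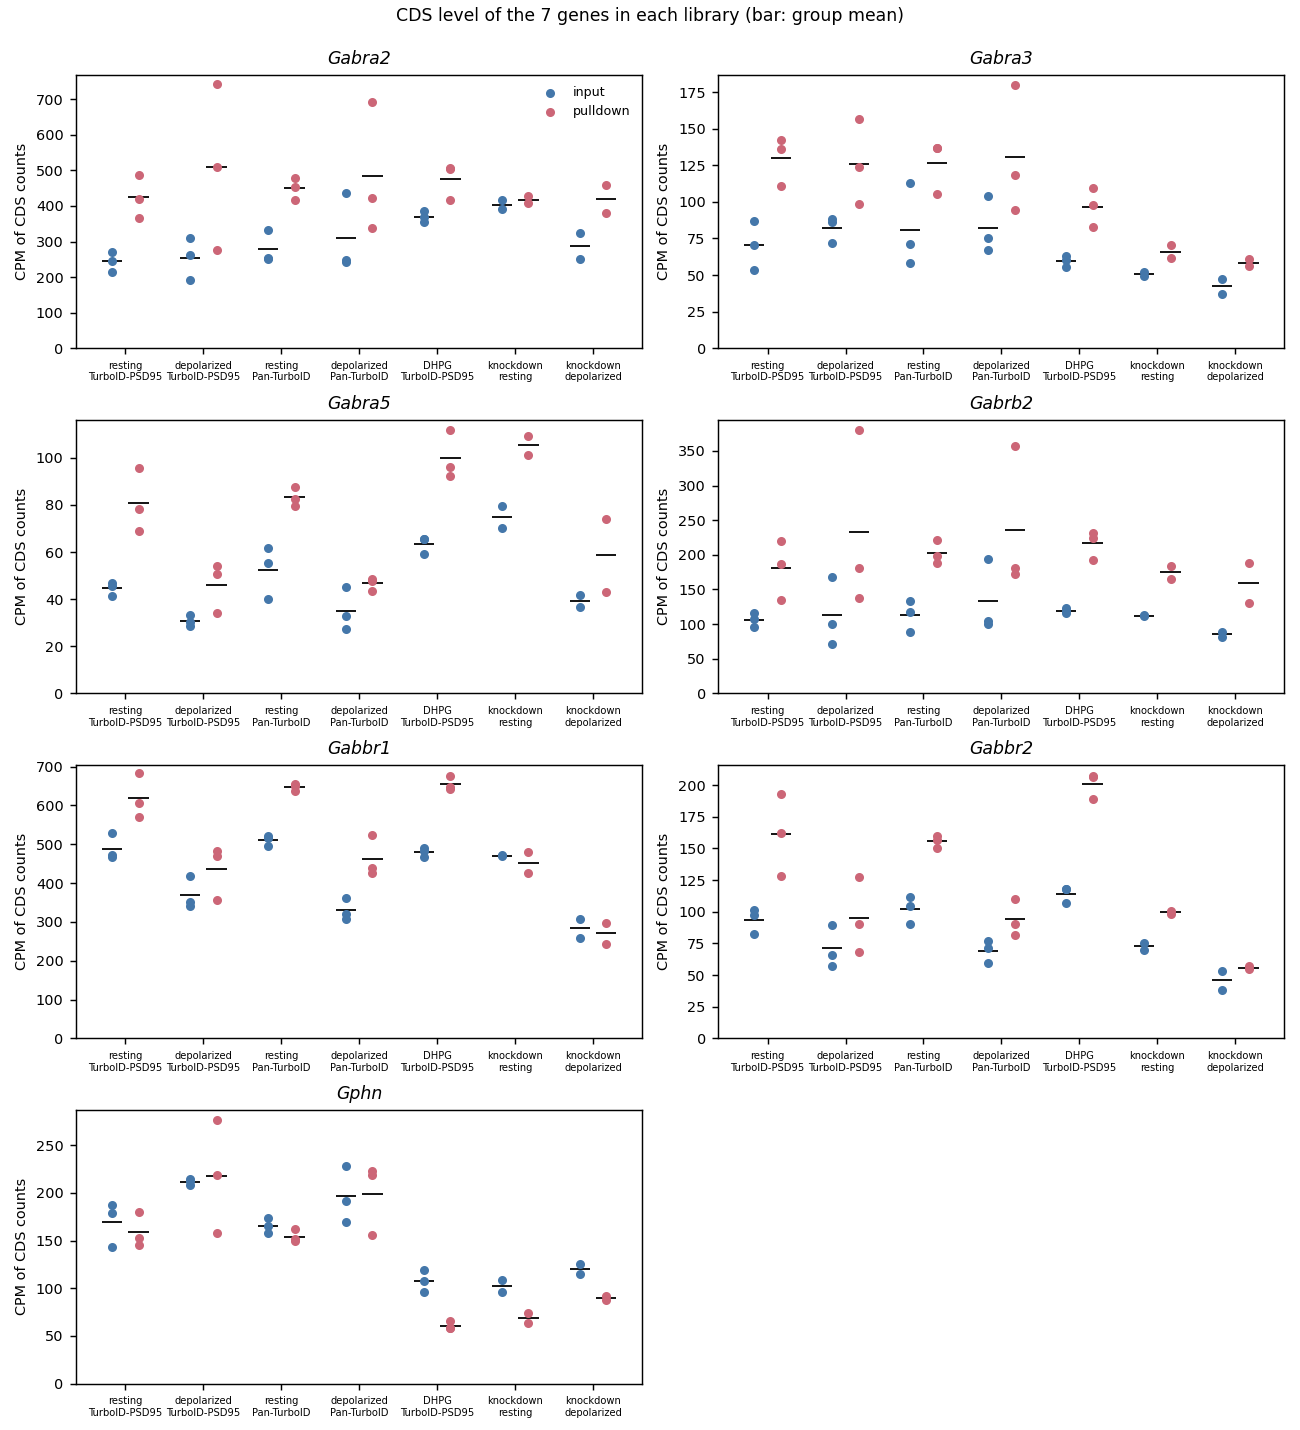
Each panel plots the CPM of CDS counts of 1 gene (y axis, linear from 0) in the 7 conditions of the study (x axis), with inputs and pulldowns as separate points for each library and a bar at the group mean. Gabbr1 spans 244 to 682 CPM and Gphn has its lowest group mean in the DHPG pulldowns, at 58.0 to 65.3 CPM.

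Across the 14 groups, the ratio of the highest to the lowest group mean was smallest for Gabra2 and largest for Gabbr2. Gabra2 ran from 244 CPM in the resting TurboID-PSD95 inputs to 510 CPM in the depolarized TurboID-PSD95 pulldowns, a ratio of 2.09. Gabbr2 ran from 45.9 CPM in the depolarized knockdown inputs to 201 CPM in the DHPG pulldowns, a ratio of 4.38. Most neighbours in the order of the groups overlapped in their libraries, 12 of 13 neighbouring pairs for Gabra2 and Gabrb2, 11 for Gabra3, Gabra5 and Gabbr1, 10 for Gphn and 9 for Gabbr2.

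The first comparison asked whether footprints of these genes were more frequent on ribosomes caught by streptavidin than in the input, a part of the same monosomes. The CPM of the 4 GABA-A subunits and of Gabbr2 was higher in the pulldown in each of the 19 pairs of a pulldown and its own input, and that of Gphn in 5. The share of all genes that were higher in all 19 pairs is not given here. Gabra3 read 70.3, 53.6 and 87.0 CPM in the 3 resting TurboID-PSD95 inputs and 142, 111 and 136 CPM in their pulldowns. The pulldowns lay above all 3 inputs. Gabra5 read 41.2, 46.9 and 45.7 CPM in the inputs and 69.1, 78.3 and 95.7 CPM in the pulldowns, and Gabbr2 read 101, 82.6 and 97.4 CPM against 162, 129 and 193 CPM. Neither gene's groups overlapped. The share of all genes whose groups were apart is not given here, in this or later comparisons. Lack of overlap therefore does not set these genes apart from others. In edgeR's quasi-likelihood test these 3 of the 7 genes rose, Gabra3 by 0.92 ± 0.28 on the log2 scale (SE, FDR = 0.0189), Gabra5 by 0.89 ± 0.23 (FDR = 0.00996) and Gabbr2 by 0.81 ± 0.23 (FDR = 0.0137), where 25% of the 13019 genes tested passed, 11.5% of them higher and 13.5% lower as shares of all tested. The median log2 fold change was 0.81 over the 7 genes and -0.05 over all genes tested.

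The remaining 4 genes did not pass at rest. Gabra2 read 246, 216 and 270.0 CPM in the inputs and 419, 367 and 486 CPM in the pulldowns, without overlap (log2 fold change 0.83, FDR = 0.0549). Gabrb2 read 117, 95.4 and 108 CPM against 219.6, 135 and 187 CPM, also without overlap (0.79, FDR = 0.124). Gabbr1 read 466, 472 and 528 CPM against 605, 569.5 and 682 CPM (0.37, FDR = 0.119), a smaller difference that was still of 1 sign in all 3 pairs. Gphn read 143, 179 and 187 CPM against 153, 180.0 and 145 CPM, and its groups overlapped (-0.06, FDR = 0.869). Each pulldown of the KCl experiment moved with its own input, and with the replicate number as a block 6 genes passed, all but Gphn, where 38.6% of all genes did. Gabra2 then had FDR = 0.000118, Gabrb2 0.00019 and Gabbr1 0.0333. Once the dependence of each library's counts on CDS length (the length trend) was removed, without the block, Gabbr2 did not pass (0.47, FDR = 0.108). Gabbr1 was then at 0.021 (FDR = 0.95), and Gabra2 (0.78, FDR = 0.119) and Gabrb2 (0.72, FDR = 0.258) did not pass either. Without replicate 3 no member passed and neither did any other gene, without replicate 2 only Gabra5 did, and without replicate 1 the count was 5. The shares of all genes that passed without replicate 1 or 2 are not given here, so these counts are not set against other genes.

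In depolarized TurboID-PSD95 neurons Gabra2 rose in the pulldowns by 1.05 ± 0.32 (FDR = 0.0333), from 311, 191 and 263 CPM to 742, 277 and 510.0 CPM, and it was the only member to pass, where 12.6% of all genes did (8.21% higher and 4.39% lower). The 2 groups overlapped, although each pulldown lay above its own input. With the block Gabra3, Gabra5 and Gabrb2 passed as well, with 30.3% of all genes. With the length trend removed no member passed, with Gabra2 at 1.02 (FDR = 0.0698), and without replicate 1 or 3 Gabra2 did not pass. The change of the ratio with depolarization did not pass for any of the 7 genes, none of which reached an unadjusted p under 0.05, and 0 of 13019 genes (0%) passed in edgeR's test (236 at an unadjusted p under 0.05, and 1 gene but no member by DESeq2). The widest 95% interval of that difference, for Gabrb2, ran from -0.73 to 1.34 on the log2 scale, and the narrowest, for Gabbr1, from -0.59 to 0.40.

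**Figure D2:**
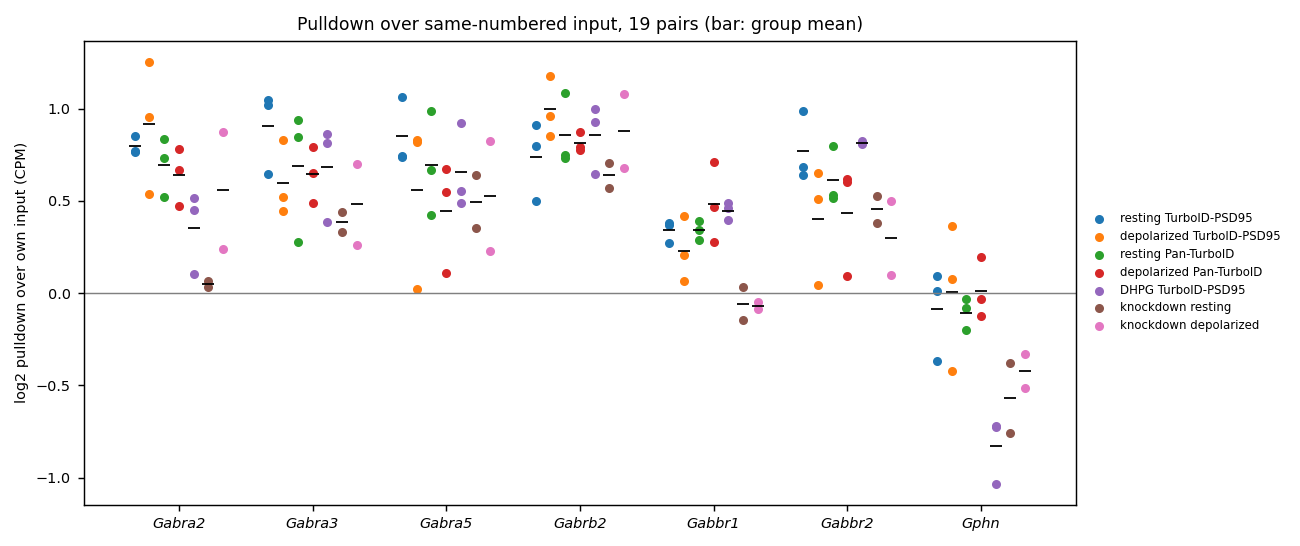
The log2 ratio of pulldown to same-numbered input in CPM (y axis) is drawn for each of the 19 pairs, by gene (x axis) and condition (colours), with a bar at each mean and a line at 0. Every pair of Gabra2, Gabra3, Gabra5, Gabrb2 and Gabbr2 lies above 0, as do 16 of 19 for Gabbr1 and 5 of 19 for Gphn.

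With Pan-TurboID, Gabra5 rose in the pulldowns at rest by 0.72 ± 0.23 (FDR = 0.0465), from 61.5, 40.0 and 55.1 CPM to 82.4, 79.6 and 87.7 CPM, where 9.56% of all genes passed (4.52% higher and 5.04% lower). It was the only member called, and after depolarization none was, where 8.83% of all genes passed (5.19% higher and 3.64% lower), 5 of the 7 members had an unadjusted p under 0.05 and DESeq2 called 2, Gabra3 and Gabbr1. With the block 6 members passed at rest, again all but Gphn, and 5 after depolarization, all but Gphn and Gabra5, with 28.1% and 27.9% of all genes. Gabra5 did not pass at rest with the length trend removed (0.66, FDR = 0.0946), with CDS totals alone (FDR = 0.0505) or with no filter on low counts (FDR = 0.0639). With the length trend removed, without the block, Gabbr1 was at 0.11 at rest (FDR = 0.752) and 0.21 after depolarization (FDR = 0.46). Without replicate 2 or replicate 3 no gene at all passed in either Pan-TurboID comparison.

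The question of dendritic against whole-neuron labelling was put to the difference between the 2 ligases' ratios. No member passed and none had an unadjusted p under 0.05, while 1 gene of 13019 did pass (0.00768%), namely Dlg4, by 4.17 ± 0.64. The TurboID-PSD95 virus itself encodes PSD95, and Dlg4 was also higher in resting TurboID-PSD95 inputs (158.8 CPM) than in Pan-TurboID ones (54.2 CPM), so footprints of the transgene and of the neurons' own Dlg4 cannot be told apart. On the log2 scale the 95% interval of the difference ran from -0.40 to 0.84 for Gabra2, from -0.46 to 0.61 for Gabra3, from -0.30 to 0.62 for Gabra5 and from -0.68 to 0.78 for Gabrb2. It ran from -0.49 to 0.21 for Gabbr1, from -0.38 to 0.51 for Gabbr2 and from -0.40 to 0.41 for Gphn. All 7 intervals include 0 and leave room for differences of either sign. DESeq2 called 2 genes here, and no member.

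Pulldowns also held fewer footprints near the start of the CDS than inputs, for these genes as for most. Of the counts in the resting TurboID-PSD95 inputs, 25.9% ± 2.02 of the Gabbr2 counts fell in exon segments wholly within the first 20% of the CDS, against 6.87% ± 1.36 in the pulldowns (SD, n = 3). For Gabrb2 the shares were 24.3% ± 6.54 and 5.80% ± 0.50, for Gabra2 21.9% ± 2.15 and 8.27% ± 0.68, and for Gphn 23.1% ± 2.40 and 15.1% ± 3.16. Over 5241 genes with enough counts the median change was -10.3 percentage points, and 5.90% of them rose. Leaving those early segments out kept the 3 resting TurboID-PSD95 calls and added Gabra2 and Gabrb2. After depolarization 5 members then passed, namely the 4 GABA-A subunits and Gabbr2. The share of all genes that passed without those segments is not given here, so these counts are not set against other genes.

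The footprint levels of Gabra5 and Gabbr1 were lower in the inputs of depolarized than of resting neurons. In the TurboID-PSD95 inputs Gabra5 read 41.2, 46.9 and 45.7 CPM at rest and 30.2, 33.3 and 28.7 CPM after KCl, and in the Pan-TurboID inputs 61.5, 40.0 and 55.1 CPM against 45.1, 27.4 and 32.7 CPM. Gabbr1 read 466, 472 and 528 CPM against 418, 341 and 351 CPM with TurboID-PSD95, and 517, 522 and 495 CPM against 319, 362 and 309 CPM with Pan-TurboID. Every depolarized library of these 2 genes lay below its same-numbered resting library, and the groups overlapped only for Gabra5 in Pan-TurboID inputs. Over both ligases, Gabbr1 fell by 0.48 ± 0.13 on the log2 scale (FDR = 0.00955) and Gabra5 by 0.53 ± 0.17 (FDR = 0.0314), where 15.4% of all genes passed (6.32% higher and 9.03% lower). This fit treats the inputs of both ligases from 1 replicate as independent. With the replicate block the FDR was 0.00554 for Gabbr1 and 0.0192 for Gabra5. Here the block is the replicate number, shared by resting and depolarized libraries. It still counts the inputs of both ligases separately, so it does not remove that limit. Without replicate 2 or without replicate 3 neither passed, and with the length trend removed neither passed while Gphn did.

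Gabbr2 did not pass that test. Its inputs read 101, 82.6 and 97.4 CPM at rest and 89.4, 66.1 and 57.6 CPM after KCl with TurboID-PSD95, and 104, 112 and 90.4 CPM against 76.8, 71.6 and 59.4 CPM with Pan-TurboID (log2 fold change -0.45, FDR = 0.0609). With the replicate block, which still counts the inputs of both ligases separately, it passed at -0.46 (FDR = 0.0363). In the TurboID-PSD95 pulldowns it read 162, 129 and 193 CPM at rest and 127, 68.1 and 90.4 CPM after KCl (-0.73, FDR = 0.0518, and -0.75, FDR = 0.0267, with the block). Depolarized and resting libraries were apart in these pulldowns but met in the TurboID-PSD95 inputs.

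In the pulldowns Gabra5 was the only one of the 7 genes to pass, with both ligases. It fell by 0.79 ± 0.24 in TurboID-PSD95 pulldowns (FDR = 0.0404), from 69.1, 78.3 and 95.7 CPM to 54.0, 34.0 and 50.6 CPM, where 6.59% of all genes passed (3.31% higher and 3.28% lower). In Pan-TurboID pulldowns it fell by 0.78 ± 0.23 (FDR = 0.0484), from 82.4, 79.6 and 87.7 CPM to 48.7, 43.6 and 47.7 CPM, where 5.03% passed (1.87% higher and 3.16% lower). Without replicate 2 or without replicate 3 it did not pass in either, nor with the length trend removed (FDR = 0.0736 with TurboID-PSD95 and 0.0802 with Pan-TurboID) or with no filter (FDR = 0.0569 and 0.0681), and RLE factors ended the Pan-TurboID call (FDR = 0.0594). Gabbr1 had log2 fold changes of -0.48 (FDR = 0.102) and -0.42 (FDR = 0.194) in the 2 kinds of pulldown.

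Gphn leaned the other way. Its inputs read 143, 179 and 187 CPM at rest and 212, 214 and 208 CPM after KCl with TurboID-PSD95, and 158, 174 and 165 CPM against 228, 169 and 191 CPM with Pan-TurboID (log2 fold change 0.31, FDR = 0.149). Of all its same-numbered pairs, knockdown pairs included, only 1, of Pan-TurboID inputs, was lower after KCl. With the length trend removed the input difference was 0.47 (FDR = 0.0321). Gabra2, Gabra3 and Gabrb2 did not pass in inputs or pulldowns of the KCl experiment, and their depolarized and resting libraries overlapped throughout. In bulk libraries fewer cells of a type and less RNA or fewer ribosomes per cell cannot be told apart, and the 11 GABAergic markers summed to 1948 to 3174 CPM in the resting inputs and 2725 to 3467 CPM in the depolarized ones.

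**Figure D3:**
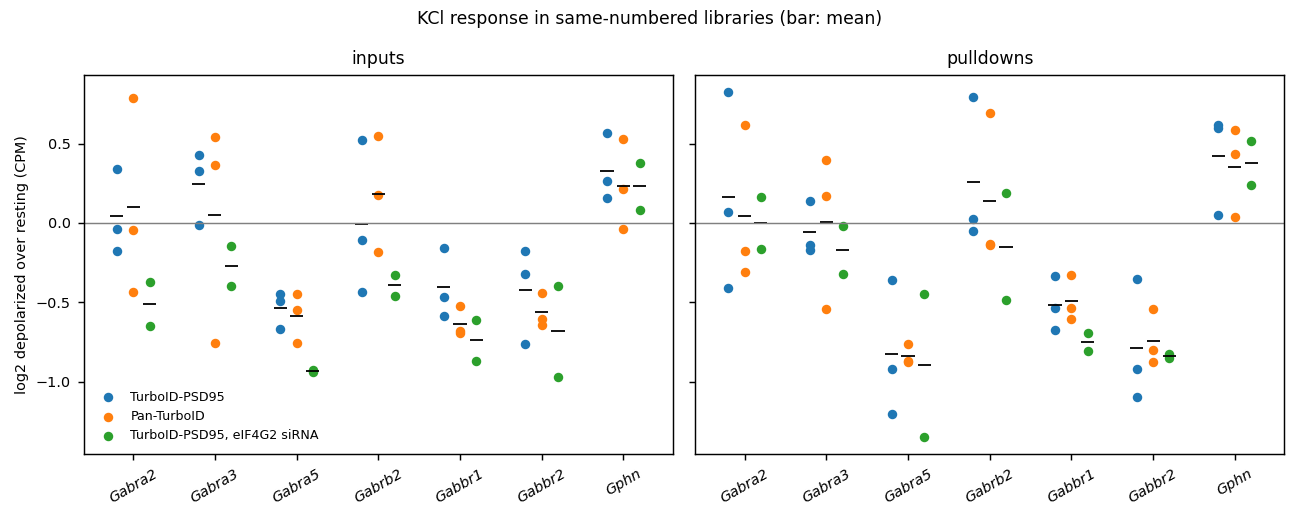
The log2 ratio of depolarized to same-numbered resting library (y axis) is drawn by gene (x axis), in 1 panel for inputs and 1 for pulldowns, with colours for TurboID-PSD95, Pan-TurboID and knockdown libraries, bars at the means and a line at 0. All points of Gabra5, Gabbr1 and Gabbr2 lie below 0 in both panels.

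Where on the message the footprints lay changed as well. Of the Gabbr2 counts in the 6 resting inputs, 23.9% ± 3.23 fell within the first 20% of the CDS, and in the 6 depolarized inputs 47.2% ± 11.9 did (SD). The ranges, 18.3% to 28.2% and 32.1% to 65.9%, were apart. The mean share was higher after KCl by 12.05 points in Gabbr1, 10.9 in Gabra5, 10.1 in Gabra3, 7.18 in Gphn, 4.89 in Gabrb2 and 3.25 in Gabra2. In each of these genes the depolarized and resting inputs overlapped, from 10.9% to 35.7% against 14.2% to 23.5% for Gabra2, for instance. The median over 5241 genes was 4.91 points, with 81.7% of genes above 0 and 13.6% above Gabbr1, so a shift towards the start was the rule among genes. The knockdown inputs showed the same for Gabbr2, at 17.8% ± 0.96 at rest and 47.4% ± 12.9 after KCl (n = 2).

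On the first Gabbr2 exon, 318 nt of coding sequence, the density of counts was 2.01 ± 0.15 times the mean of the whole CDS in resting TurboID-PSD95 inputs and 4.23 ± 1.05 times in depolarized ones (SD, n = 3). In the pulldowns it was 0.45 ± 0.19 and 1.64 ± 1.06 times. The first coding exon of Gabbr1, of 82 nt, read 2.00 ± 0.42 and 4.14 ± 1.09 times in the inputs and 0.61 ± 0.26 and 1.48 ± 0.89 times in the pulldowns. Without the first 20% of the CDS, Gabbr2 fell in the inputs by 0.86 (FDR = 0.00658) and Gabbr1 by 0.63 (FDR = 0.00946).

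**Figure D4:**
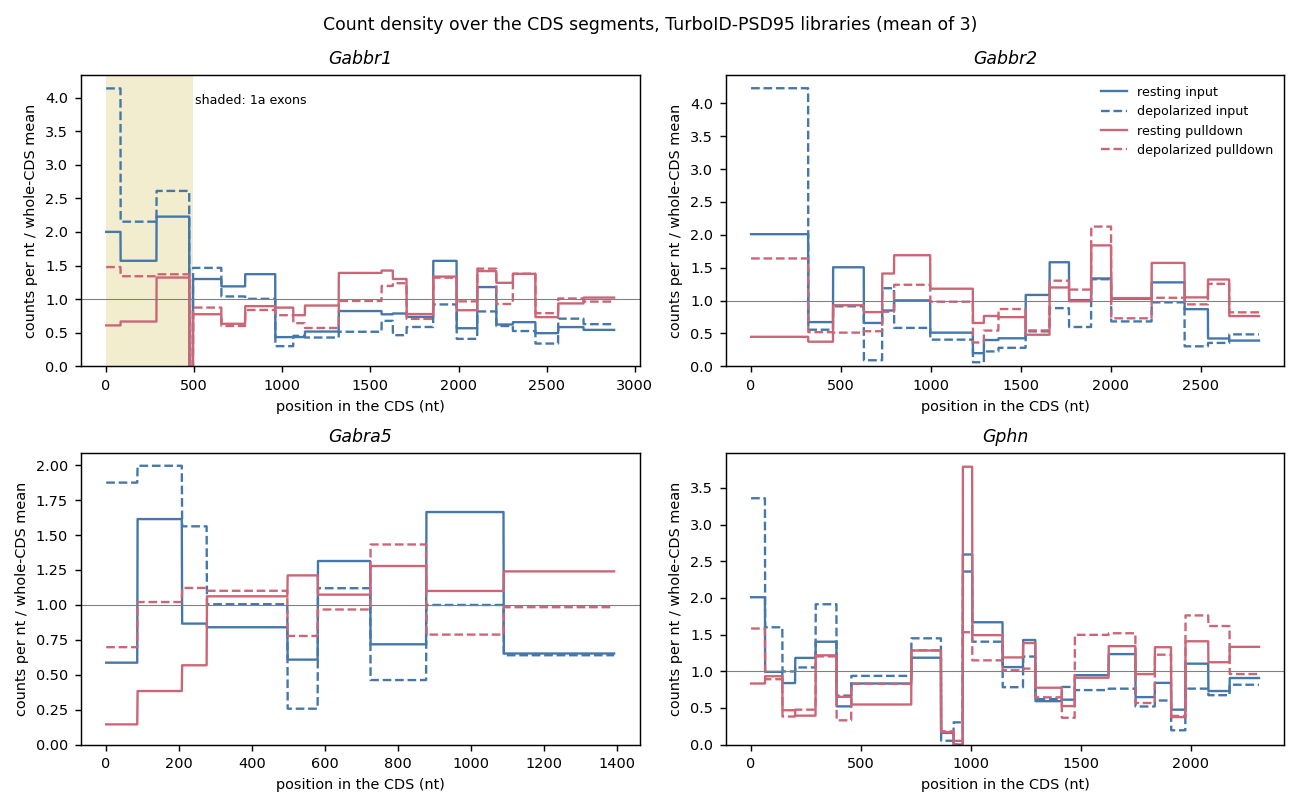
Counts per nt of each CDS segment, divided by the mean over the whole CDS (y axis), are drawn against position in the CDS in nt (x axis) for Gabbr1, Gabbr2, Gabra5 and Gphn in the TurboID-PSD95 libraries of the KCl experiment, as means of 3 libraries, with blue for inputs, red for pulldowns, full lines for resting and dashed lines for depolarized neurons, and shading over the long form's exons in Gabbr1 (1a exons). Depolarized inputs reach 4.23 on the first segment of Gabbr2 and 4.14 on that of Gabbr1.

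The share of Gabbr1 counts in the 493 nt of the long form rose with KCl from 29.5% ± 4.72 to 41.5% ± 8.52 in the inputs (SD, n = 6 and 6), by 12.05 points (two-sided exact permutation test, p = 0.0173, adjusted p = 0.0346 over the 2 genes tested). Those nucleotides are the first part of the CDS, so a change of form and the shift of footprints towards the start cannot be told apart in this share. Without 1 replicate the difference was 8.05 to 16.1 points, lowest without replicate 2 (adjusted p = 0.457, exact permutation test). Without replicate 1 or 3 the adjusted p was 0.0571, from the smallest unadjusted p that 4 against 4 libraries can give, 0.0286. The test treats the inputs of both ligases from 1 replicate as independent. With the replicate as a block (both ligases averaged), the 3 differences were 3.96, 20.03 and 12.1 points, all above 0, with an exact p of 0.25, the smallest that 3 pairs allow (adjusted p = 0.5), so this form of the test could not pass. The short form's own start lies directly upstream of the long form's coding exon 5 and is not in the long form's CDS. Counts there came to 1.81% ± 0.70 and 3.22% ± 2.29 of those on that CDS in the TurboID-PSD95 inputs at rest and after KCl (n = 3). Pulldowns held less of the long form's segments than inputs, 15.0% ± 0.16 against 31.2% ± 3.53 at rest with TurboID-PSD95. The Gphn cassettes held 0.336% ± 0.23 of the Gphn counts at rest and 0.473% ± 0.31 after KCl (exact permutation p = 0.407).

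Counts in the 5′ UTR were compared next. Each footprint was counted at its 5′ end with an offset of 0, so ribosomes on the first codons of the CDS count towards the 5′ UTR, and these values do not separate them from ribosomes further upstream. Over the libraries, the density of counts on the 5′ UTR was a median 2.11 times that on the CDS for Gabbr2 and 2.06 times for Gabra5, against 1.27 times over 12632 genes. It was 1.29 times for Gabbr1, 0.71 for Gphn, 0.70 for Gabra2, 0.54 for Gabra3 and 0.36 for Gabrb2. The reference 5′ UTR of Gabrb2 holds 5 upstream ATGs, each followed by a stop codon in frame within the 5′ UTR, that of Gabra5 holds 2, of which 1 has such a stop, and that of Gabbr2 holds 1 with a stop. The remaining 4 hold none, and 53.8% of 12638 tested genes hold at least 1. Of the 3 genes with an upstream ATG, Gabra5 and Gabbr2 had the highest median 5′ UTR density of the 7 and Gabrb2 the lowest. This ranking takes inputs and pulldowns together and need not hold within each group.

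No member's 5′ UTR counts passed the test of KCl in TurboID-PSD95 pulldowns, where 0.275% of 10186 genes did, all higher, and 2 members had an unadjusted p under 0.05, or in inputs, where 0.442% did, all higher, and no member had. The median log2 fold change of the 5′ UTR counts was 0.79 over the 7 genes and 0.65 over all genes in the pulldowns, and 0.27 and 0.17 in the inputs. Of the 5′ UTR and CDS counts of Gabra5 together, the 5′ UTR held 41.9% ± 6.09 in resting and 54.7% ± 12.1 in depolarized TurboID-PSD95 inputs, and 11.5% ± 4.51 and 27.0% ± 21.2 in the pulldowns (SD, n = 3). The spread of the depolarized pulldowns was as large as their difference from rest.

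With DHPG, all 7 genes passed the test of pulldown over input, as did 79.8% of the 12273 genes tested (40.5% higher and 39.3% lower). Gabrb2 rose by 1.07 ± 0.08, Gabbr2 by 1.02 ± 0.07, Gabra3 by 0.90 ± 0.10, Gabra5 by 0.87 ± 0.09, Gabbr1 by 0.66 ± 0.06 and Gabra2 by 0.57 ± 0.07, with FDRs from 1.76e-10 to 1.07e-06. Gphn fell by 0.62 ± 0.09 (FDR = 3.51e-06), from 96.0, 108 and 119 CPM in the inputs to 58.0, 65.3 and 58.3 CPM in the pulldowns, well below. With the length trend removed Gabbr1 did not pass (0.061, FDR = 0.334), Gabbr2 passed at 0.44 and Gphn at -1.06. With CDS totals alone Gabra2 was at 0.36 (0.57 as given) and the median of all genes was -0.16. The members' median was 0.87 against 0.05 over all genes. The DHPG inputs differed less among themselves than libraries of any group in the KCl experiment. Scaled to the number of genes, the chi-square of a library pair was 1.47 to 1.86 for them and 8.27 to 44.8 in the KCl groups. It was 2.76 to 8.43 in DHPG pulldowns and 2.79 to 4.50 in knockdown groups. SEs and FDRs of these experiments thus rest on different spreads and do not rank the evidence. Whether the closer libraries vary like separate cultures was not tested.

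Set against the resting TurboID-PSD95 libraries of the KCl experiment, the DHPG inputs held more Gabra2 (355, 369 and 387 CPM, a rise of 0.71 ± 0.11, FDR = 0.000223), more Gabra5 (59.1, 65.5 and 65.5 CPM, 0.61 ± 0.14, FDR = 0.00337) and more Gabbr2 (118, 107 and 118 CPM, 0.39 ± 0.13, FDR = 0.026). They held less Gphn, by 0.56 ± 0.14 (FDR = 0.00529), and 32.8% of 12803 genes passed (16.3% higher and 16.5% lower). With CDS totals alone 1541 genes were higher and 2659 lower, against 2081 and 2118, and Gabbr2 did not pass (0.28, FDR = 0.11). Without replicate 2 Gabra2 and Gabra5 alone passed, and without replicate 1 or 3 Gabbr2 did not. Among the pulldowns Gabbr2 rose by 0.56 ± 0.12, Gabra5 by 0.55 ± 0.14, Gabrb2 by 0.50 ± 0.13, Gabra2 by 0.40 ± 0.11 and Gabbr1 by 0.32 ± 0.09, with FDRs from 0.00144 to 0.00986, and Gphn fell by 1.17 ± 0.14 (FDR = 5.71e-06), where 47.7% of all genes passed (21.7% higher and 26% lower). With the length trend removed Gabbr1 did not pass there (0.15, FDR = 0.221). Scaled to CDS totals alone, 1723 genes were higher and 4698 lower, against 2784 and 3325, with a median over all genes of -0.32 against -0.089. Gabra2, Gabra5, Gabrb2 and Gabbr1 then did not pass, Gabbr2 passed at 0.33 and Gabra3 passed as lower. Without replicate 1 or 2 the count of members was 3, and the share of all genes that passed then is not given here. Astrocyte markers summed to 242 to 258 CPM in the DHPG inputs and 678 to 1275 CPM in the resting ones, and GABAergic markers to 1809 to 1913 CPM and 2039 to 3150 CPM. Their part in these differences was not tested.

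The knockdown was checked on its target first. Eif4g2, which encodes a non-canonical relative of the initiation factor eIF4G, read 284 and 284 CPM in the resting and 337 and 323 CPM in the depolarized knockdown inputs, against 562, 565 and 582 CPM and 576, 538 and 772 CPM in untreated TurboID-PSD95 inputs. It fell by 0.98 ± 0.19 (FDR = 0.00375) and 0.90 ± 0.19 (FDR = 0.00638). In the pulldowns it fell by 0.60 ± 0.19 (FDR = 0.0452) at rest and by 1.05 ± 0.19 (FDR = 0.000812) after KCl. Without replicate 2 none of the 4 differences passed, without replicate 1 only that in depolarized pulldowns did, and without replicate 3 those in resting inputs and depolarized pulldowns did. Leaving out replicate 1 or 2 leaves a single knockdown library in a group, which is assumed to vary like the other groups. Without the first 20% of the CDS none of the 4 passed (-0.90 and -0.76 in resting and depolarized inputs, -0.45 and -0.73 in pulldowns, FDRs from 0.0663 to 0.352). With a replicate left out the log2 fold change remained below 0, from -0.998 to -0.953 in resting inputs and from -0.78 to -0.34 in resting pulldowns.

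Within the knockdown set, at rest, Gabrb2 rose over input by 0.75 ± 0.14 (FDR = 0.000124), Gabra5 by 0.61 ± 0.19 (FDR = 0.00919), Gabbr2 by 0.56 ± 0.17 (FDR = 0.00774) and Gabra3 by 0.49 ± 0.19 (FDR = 0.0337), and Gphn fell by 0.45 ± 0.15 (FDR = 0.0159), where 45.5% of 12239 genes passed (22.1% higher and 23.4% lower). Gabra2 did not pass at rest, at 417 and 391 CPM in the inputs and 427 and 409 CPM in their pulldowns (0.16, FDR = 0.223). After KCl Gabrb2 rose by 1.01 ± 0.16 (FDR = 6.62e-06), Gabra5 by 0.67 ± 0.22 (FDR = 0.0127), Gabra2 by 0.64 ± 0.11 (FDR = 3.42e-05) and Gabra3 by 0.59 ± 0.20 (FDR = 0.0188), where 48.8% passed (24% higher and 24.8% lower). Gabbr1 did not pass in either. It read 473 and 469 CPM in the resting inputs against 427 and 479 CPM in their pulldowns, and 259 and 307 CPM against 244 and 296 CPM after KCl. With the length trend removed Gabbr1 was lower in the pulldowns, at -0.34 at rest (FDR = 0.0125) and -0.45 after KCl (FDR = 0.00247), while Gabra3 passed in neither state (FDR = 0.0635 and 0.0605) and Gabbr2 did not pass at rest (FDR = 0.457). Gphn at rest was then -0.71. With CDS totals alone Gabra3 passed in neither state either (FDR = 0.102 and 0.0504). Without the first 20% of the CDS Gphn did not pass at rest (FDR = 0.102) and Gabbr2 passed after KCl (0.94, FDR = 0.000581). Leaving out 1 library at a time, Gabrb2 passed throughout in both states and Gabra2 after KCl. At rest only Gabra5 and Gabrb2 passed without resting input 2, Gabra3 and Gabra5 did not without resting input 1, Gabra5 did not without resting pulldown 1, and Gabra3 and Gphn did not without resting pulldown 2. After KCl only Gabra2 and Gabrb2 passed without depolarized input 1, Gabra3 did not without depolarized pulldown 1, and Gabra5 did not without depolarized pulldown 2.

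In the knockdown neurons Gabra5 and both GABA-B genes were lower after KCl. Gabra5 read 70.3 and 79.4 CPM in the resting inputs and 36.8 and 41.8 CPM in the depolarized ones, a fall by 0.93 ± 0.20 (FDR = 0.00151). Gabbr1 fell in the inputs by 0.72 ± 0.10 (FDR = 1.27e-05), and Gabbr2, at 75.4 and 70.0 CPM against 38.6 and 53.2 CPM, by 0.67 ± 0.18 (FDR = 0.00868; -1.24 without the first 20% of the CDS). Gabra2 fell by 0.47 ± 0.11 (FDR = 0.00242), from 417 and 391 CPM to 323 and 249.7 CPM, where 19.3% of all genes passed (8.96% higher and 10.3% lower). In the pulldowns Gabra5 fell by 0.86 ± 0.20 (FDR = 0.00264), Gabbr2 by 0.83 ± 0.18 (FDR = 0.00146) and Gabbr1 by 0.74 ± 0.11 (FDR = 1.2e-05), where 22.2% passed (10.2% higher and 12% lower). Whether the response to KCl differed between knockdown and untreated neurons was not tested. Without depolarized input 1 Gabra5 and Gabbr2 did not pass in the inputs, without depolarized input 2 Gabra2 did not, without resting input 1 Gabbr2 did not, and without depolarized pulldown 1 Gabra5 did not pass in the pulldowns.

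Set against untreated TurboID-PSD95 libraries, Gphn and Gabra3 were lower in the knockdown libraries. In the resting pulldowns Gphn fell by 1.16 ± 0.22 (FDR = 0.00122), at 73.9 and 64.0 CPM against 153, 180.0 and 145 CPM, and Gabra3 by 0.92 ± 0.24 (FDR = 0.0184), at 61.6 and 70.4 CPM against 142, 111 and 136 CPM. No library of 1 group reached the other, and the share of all genes for which this held is not given here. Of 13197 genes, 9.15% passed (4.18% higher and 4.96% lower). In the depolarized pulldowns Gphn fell by 1.21 ± 0.22 (FDR = 0.000699), Gabra3 by 1.05 ± 0.25 (FDR = 0.00588) and Gabbr1 by 0.63 ± 0.20 (FDR = 0.0285), where 18.9% passed (7.96% higher and 11% lower). In the depolarized inputs Gabra3 fell by 0.94 ± 0.25 (FDR = 0.0281) and Gphn by 0.79 ± 0.21 (FDR = 0.0309), where 5.32% passed (3.18% higher and 2.14% lower). In the resting inputs no member passed, where 3.9% of genes did (1.89% higher and 2.01% lower), 3 members had an unadjusted p under 0.05 and DESeq2 called 2.

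Leaving out replicate 1 or 2 of both sets leaves a single knockdown library in each group. Leaving out replicate 2 ended every one of these calls, leaving out replicate 1 kept only Gphn in the pulldowns, and leaving out replicate 3 of the untreated set ended those in the depolarized inputs, that of Gabra3 in the resting pulldowns and that of Gabbr1. In the resting pulldowns the log2 fold change without 1 replicate was -1.31 to -0.91 for Gphn and -1.08 to -0.76 for Gabra3, and in the depolarized pulldowns it was -1.35 to -1.04 for Gphn, -1.15 to -0.89 for Gabra3 and -0.90 to -0.39 for Gabbr1. Without the first 20% of the CDS Gabbr1 did not pass in the depolarized pulldowns (-0.68, FDR = 0.0659), nor Gabra3 in the depolarized inputs (-0.95, FDR = 0.0602). The 11 GABAergic markers summed to 828 to 1126 CPM in the knockdown inputs against 2039 to 3467 CPM in the untreated TurboID-PSD95 inputs, and to 786 to 1088 CPM against 2028 to 3144 CPM in the pulldowns. Their part in the lower Gphn and Gabra3 was not tested. Gphn was also low in the DHPG libraries, at 58.0 to 119 CPM, where the GABAergic markers summed to 1757 to 1913 CPM.

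Of 38 other genes of inhibitory synapses, comprising further GABA-A subunits, receptor-trafficking and scaffold proteins, GABA-B auxiliary subunits and genes of GABA synthesis, transport and breakdown, 35 were tested. In the resting TurboID-PSD95 pulldowns 9 rose over input and 2 fell, where 11.5% of all genes were higher and 13.5% lower, with a median log2 fold change of 0.51 against -0.05 over all genes. Without replicate 3 no gene passed in this comparison, these included. Their calls with the length trend removed are not given here. Abat, which breaks down GABA, rose by 1.27 ± 0.26 (FDR = 0.00361) and the trafficking adaptor Trak1 by 1.14 ± 0.28 (FDR = 0.00688), while Gabarap, a small protein of receptor trafficking, fell by 1.23 ± 0.33 (FDR = 0.0113) and the GABA-B auxiliary subunit gene Kctd12 by 0.89 ± 0.33 (FDR = 0.0499). After KCl 5 rose and none fell, where 8.21% were higher and 4.39% lower, with a median of 0.52 against -0.015, among them Abat (1.27 ± 0.26, FDR = 0.00672) and Trak1 (0.97 ± 0.28, FDR = 0.0273).

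After KCl 7 of these 35 genes were lower in the inputs and 1 was higher, where 9.03% of all genes were lower and 6.32% higher. Their median on the log2 scale was -0.12, against -0.0078 over all genes. Plcl1, which binds GABA-A receptors in trafficking, fell by 0.78 ± 0.18 (FDR = 0.00303) and Dag1, the dystroglycan of some inhibitory synapses, by 0.55 ± 0.13 (FDR = 0.0036), and Shisa7, an auxiliary protein of GABA-A receptors, rose by 0.61 ± 0.21 (FDR = 0.0471). In the TurboID-PSD95 pulldowns 4 fell and none rose, where 3.28% were lower and 3.31% higher. Among them were Slitrk3, an inhibitory synapse organizer, by 0.86 ± 0.20 (FDR = 0.0107) and Clptm1, a gene of GABA-A receptor trafficking, by 0.76 ± 0.23 (FDR = 0.0434). In the Pan-TurboID pulldowns 3 fell and none rose, where 3.16% were lower and 1.87% higher.

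The GABA-B genes had the most alike patterns of any 2 members. Over the log2 of the 14 group mean CPM values, Gabbr1 and Gabbr2 correlated at r = 0.94, and each was the 11th closest of 7937 genes to the other. Gabra2 and Gabrb2 correlated at r = 0.86, and Gabra5 and Gphn at r = -0.73. Among the closest genes were Acsl4 (0.96) and Glra2 (0.94) for Gabra2, Grin1 (0.97) and Ptprn (0.96) for Gabra3, Gnb1 (0.98) for Gabra5, and Abca5 (0.97) and Dolk (0.97) for Gabrb2. For Gabbr1 they included Pitpnm1 (0.96), for Gabbr2 Nrxn2 (0.97) and Lrrc24 (0.96), and for Gphn Dcc (0.97) and Dnajb11 (0.97). These are descriptions over 14 groups that share libraries' depth and experiment, and carry no test.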

How the data were processed

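Counts were deposited by the authors per annotated segment (CDS and UTRs): reads were trimmed, aligned to mm10 with Rsubread and counted with plastid at their 5′ ends, per the file headers with an offset of 0 and read lengths of 25 to 100 nt, on UCSC knownGene models. The deposited RPKM values follow from those counts for all 36089664 segment values checked, and were used for that check only. Of 67238 coding transcripts 99.1% were matched to a symbol. The transcript with the greatest length of CDS and UTRs together was taken per gene, so another transcript can hold a longer CDS. The raw CDS counts of each gene were tested with edgeR 4.0.16 (R 4.3.3; TMM, filterByExpr, robust quasi-likelihood test, Benjamini-Hochberg FDR 0.05 over all genes tested); fits gave log2 fold changes on TMM-scaled counts, whereas CPM used CDS totals. The KCl experiment was fitted on its 24 libraries, DHPG on 6 (12 with resting TurboID-PSD95 libraries), and knockdown on 8 (20 with untreated ones). Ratios per pair added 0.5 counts to each count. Early CDS shares used genes with at least 20 counts in each library.

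Resting and activated samples of a replicate were processed together and a pulldown comes from its input's lysate. Deviations from group means correlated above 0.1 in 12 of 12 pulldown and input pairs of the KCl experiment (r = 0.346 to 0.706), in 4 of 12 pairs of depolarized and resting samples, and in none of the DHPG and knockdown pairs. The study's methods call the PL-Ribo-seq replicates biological, while the knockdown groups hold 2 libraries each. Members and lists were chosen with earlier results of these data known. Named genes were the 7 members, Eif4g2, Dlg4, the 2 genes most alike each member among 7937 with a mean of at least 16 CPM, and up to 3 genes per direction with the smallest p among 38 other inhibitory synapse genes. Alternatives were other scalings (RLE, CDS totals alone), no filter, the likelihood ratio test, DESeq2 1.42.0, the transcript with the highest count, the mean of both inputs, a replicate block, removal of the CDS length trend, and each replicate left out; omission of the first 20% of the CDS and a block in the test of isoform shares were chosen after seeing the data. The scripts were tested on simulated data. Tables were handled in Python 3.11.15 with pandas 2.3.3 and scipy 1.17.1. Some genes that this rule would name are not reported here.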

Additional observations from a re-analysis of the deposited data

Results flagged for a closer look

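Gabbr1 stood below its own input in both pairs of the depolarized knockdown pulldowns, with a mean log2 ratio of -0.0677 in CPM, whereas it stood above its input in every pair of the 4 groups of the KCl experiment and of the DHPG set. The groups thus moved to opposite sides of 0, and the difference between them was not tested. On TMM-scaled counts the same comparison gave a log2 fold change of 0.04.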

How the results depend on the processing

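Counts of members past the threshold moved with several choices, and the cause was not tested. The number of all genes past the threshold moved with the setting too, so these counts do not describe the members alone. For pulldowns over input of the KCl experiment, the shares of all genes with the replicate block are given above. With the replicate block, 6 members passed in resting TurboID-PSD95 pulldowns over input, 4 in depolarized ones, 6 in resting and 5 in depolarized Pan-TurboID ones, and 2 in depolarized against resting TurboID-PSD95 pulldowns. Without the first 20% of the CDS, 5, 5 and 1 passed in resting TurboID-PSD95, depolarized TurboID-PSD95 and depolarized Pan-TurboID pulldowns over input, and 1 in depolarized knockdown against untreated inputs. With the length trend removed, 0 passed in depolarized TurboID-PSD95 and resting Pan-TurboID pulldowns over input, 0 in depolarized against resting pulldowns of either ligase, 1 in depolarized against resting inputs and 1 in resting knockdown against untreated inputs. It also ended the calls of Gabbr2 in resting TurboID-PSD95 pulldowns over input (FDR = 0.108), of Gabbr1 in DHPG pulldowns over input (FDR = 0.334) and against rest (FDR = 0.221), and, over input in knockdown libraries, of Gabra3 (FDR = 0.0635 at rest and 0.0605 after KCl) and Gabbr2 (FDR = 0.457 at rest). It added Gphn in depolarized knockdown pulldowns over input (-0.68, FDR = 0.000954) and in resting knockdown inputs against untreated ones (-0.81, FDR = 0.0281), and Gabbr2 in resting and depolarized knockdown pulldowns against untreated ones (-0.72 and -0.92, FDR = 0.0401 and 0.00871). Without the first 20% of the CDS, the calls of Gphn in resting knockdown pulldowns over input (FDR = 0.102) and of Gabbr1 in depolarized knockdown against untreated pulldowns (FDR = 0.0659) ended, and Gabbr2 in depolarized knockdown pulldowns over input (FDR = 0.000581) and Gabrb2 in DHPG inputs against rest (0.39, FDR = 0.041) were added.

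For depolarized TurboID-PSD95, resting Pan-TurboID and depolarized Pan-TurboID pulldowns over input, depolarized against resting TurboID-PSD95 pulldowns and resting knockdown inputs against untreated ones, the likelihood ratio test gave 2, 2, 1, 2 and 1 members and DESeq2 gave 3, 2, 2, 2 and 2. Of all genes, DESeq2 called 2636, 2137, 2252, 1377 and 908 there, against 1640, 1245, 1150, 858 and 515 in the main test. The mean of both inputs gave 2 in depolarized TurboID-PSD95 pulldowns. CDS totals alone gave 0 in resting Pan-TurboID pulldowns over input, 3 and 2 in depolarized against resting TurboID-PSD95 and Pan-TurboID pulldowns, 3 in DHPG against resting pulldowns and 1 in resting knockdown inputs. Without a filter the counts were 0 in resting Pan-TurboID pulldowns over input, 0 in depolarized against resting pulldowns of either ligase and 1 in resting knockdown inputs. The transcript with the highest count gave 2 in depolarized against resting TurboID-PSD95 pulldowns, and RLE factors gave 0 in Pan-TurboID ones.

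Leaving out a replicate gave 0 to 5 members in resting and 0 to 2 in depolarized TurboID-PSD95 pulldowns over input, 0 to 2 in resting and 0 to 1 in depolarized Pan-TurboID ones, 0 to 3 in depolarized against resting inputs and TurboID-PSD95 pulldowns, and 0 to 1 in Pan-TurboID pulldowns. It gave 2 to 3 in DHPG inputs and 3 to 6 in DHPG pulldowns against rest, 2 to 5 in each knockdown pulldown over input and in depolarized against resting knockdown inputs, 0 in depolarized knockdown inputs, 0 to 1 in resting and 0 to 2 in depolarized knockdown pulldowns against untreated ones.

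No called value changed sign. Gphn over input was 0.018 at rest with TurboID-PSD95 and 0.020 with Pan-TurboID without the first 20% of the CDS, and -0.16 after KCl with either ligase with the length trend removed. Gabbr1 over input in knockdown libraries was -0.059 at rest and -0.064 after KCl with CDS totals alone, and -0.34 and -0.45 with the length trend removed, where both passed as lower (FDR = 0.0125 and 0.00247). In depolarized TurboID-PSD95 libraries Gabbr1 over input was -0.093 with the length trend removed (FDR = 0.774). Leaving out a replicate, Gphn over input ranged from -0.10 to 0.0865 and -0.13 to 0.29 in resting and depolarized TurboID-PSD95 libraries and from -0.11 to 0.023 and -0.0096 to 0.12 in Pan-TurboID ones, and Gabbr1 from -0.033 to 0.12 and -0.090 to 0.17 in resting and depolarized knockdown libraries. Eif4g2 without the first 20% of the CDS missed the threshold at -0.90 and -0.76 in resting and depolarized inputs and -0.45 and -0.73 in pulldowns, and in resting pulldowns at -0.58 with RLE factors and -0.57 without a filter. Leaving out a replicate it ranged from -0.998 to -0.953, -1.02 to -0.72, -0.78 to -0.34 and -1.18 to -0.90 in resting and depolarized inputs and pulldowns. The Gabbr1 long-form share difference ranged from 8.05 to 16.1 points and the Gphn cassette share from -0.047 to 0.25 points. With the replicate block (chosen after seeing the data) the Gabbr1 difference was 12.05 points and could not pass with 3 pairs (exact adjusted p = 0.5).

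Of 585 values of single genes under other settings, 521 kept their direction and side of the threshold, and of 293 with a library left out, 220 did. The replicate block changed no other call than those given here and in the report.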
